A study of Arabidopsis thaliana with 12 samples.

Results

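The aquaporins of *Arabidopsis thaliana*, the membrane channels that carry water and small solutes, were followed across 4 groups of whole seedlings. The family was taken as a fixed list of gene identifiers, matched to the identifiers of all 12 count files, and its 35 members comprised 13 PIPs, 10 TIPs, 9 NIPs and 3 SIPs among 37336 genes in the files. Of these 35 members, 30 passed the filter on low counts and were tested. RNA-seq was run on 4-day-old Col-0 seedlings, in 3 libraries for each of wild type (WT) at 29 °C, 35S:APOLO at 23 °C, *vim1-3* at 23 °C and WT at 23 °C. The labels describe the warm WT seedlings only as grown at 29 °C, whereas the methods of the study describe seedlings moved to 29 °C for 6 h after growth at 23 °C. 35S:APOLO is a single line (OE *APOLO-1*) that over-expresses the long noncoding RNA *APOLO* from the viral 35S promoter, which is active in most tissues, and *vim1-3* carries an insertion in *VIM1*, which encodes a methylcytosine-binding protein. The comparisons addressed which transcripts respond to warmth in WT and which differ already at 23 °C in the lines with altered *APOLO* or *VIM1*.

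PIPs (plasma membrane intrinsic proteins) are the main water channels of the cell surface and fall into the PIP1 and PIP2 groups, of which PIP1 proteins generally reach the plasma membrane together with PIP2 partners. TIPs (tonoplast intrinsic proteins) sit in the vacuolar membrane and let water enter the vacuole of growing cells. NIPs (nodulin 26-like intrinsic proteins) carry solutes such as boric acid or metalloids more than water, and SIPs (small basic intrinsic proteins) are found in the endoplasmic reticulum.

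The narrow pore of an aquaporin is lined by boxes of asparagine, proline and alanine (NPA boxes), and the subfamilies differ in them. The reading frames of RefSeq encoded an NPA box at the first such position in 30 of 35 members, namely in 13 of 13 PIPs, 10 of 10 TIPs, 7 of 9 NIPs and 0 of 3 SIPs. To show this difference, 21 bases of coding sequence are given for 1 member of each subfamily, with the 9 bases of the first box in capitals. The members are *PIP2;1* (AT3G53420, chr3:19804660-19805148, minus strand, with an intron inside this span), *TIP1;2* (AT3G26520, chr3:9723440-9723460, minus strand), *NIP1;2* (AT4G18910, chr4:10366662-10366682, plus strand) and *SIP1;2* (AT5G18290, chr5:6056186-6056206, minus strand) in the TAIR10.1 assembly.
AT3G53420: ggtggtcacattAACCCAGCG
AT3G26520: ggtggccacgttAACCCTGCC
AT4G18910: ggtgctcatttcAATCCGGCC
AT5G18290: ggtgctagcttcAATCCTTGT

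Total counts per library ranged between 8824476 (WT 23 °C replicate C) and 22925019 (*vim1-3* replicate A). *APOLO* had 4984, 8949 and 11720 counts in 35S:APOLO, against 1197, 2 and 1 in WT 23 °C, so that the library labelled WT 23 °C replicate A held *APOLO* reads that the other 2 WT 23 °C libraries lacked. *VIM1* had 5, 3 and 1 counts in *vim1-3*, against 147, 68 and 56 in WT 23 °C. The WT 23 °C libraries also varied most among themselves: the median SD of log2 CPM (counts per 1000000 of the TMM-scaled library size) over the 30 tested aquaporins was 0.15 in WT 29 °C, 0.21 in 35S:APOLO, 0.11 in *vim1-3* and 0.44 in WT 23 °C. Results against WT 23 °C are therefore also given without single libraries, and without the library labelled replicate A in particular. Markers of green tissue summed to 43876 to 63209 CPM over the 12 libraries, with no marker at 0, and root markers were read in every library. At most 1 of the 10 root markers was at 0 in any library.

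Aquaporin transcripts took the largest share of the library in warm WT seedlings. They made up 2.09, 2.27 and 1.99% of all counts in WT 29 °C, 1.58, 1.36 and 1.48% in 35S:APOLO, 1.34, 1.17 and 1.28% in *vim1-3*, and 1.13, 0.935 and 0.913% in WT 23 °C. Every WT 29 °C library was above every other library, and every 35S:APOLO and *vim1-3* library was above every WT 23 °C library. Summed over the 35 members, the level was 20747 ± 2025 CPM in WT 29 °C, 14847 ± 1986 in 35S:APOLO, 12381 ± 669 in *vim1-3* and 10343 ± 926 in WT 23 °C (SD, n = 3 each). In whole seedlings, fewer cells of a type and less RNA per cell cannot be told apart.

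PIPs and TIPs followed this order in their means, and NIPs and SIPs did not. PIPs summed to 11808 ± 1190 CPM in WT 29 °C, 7387 ± 936 in 35S:APOLO, 6116 ± 339 in *vim1-3* and 5335 ± 331 in WT 23 °C. TIPs summed to 8735 ± 825 CPM in WT 29 °C, 7245 ± 1073 in 35S:APOLO, 6041 ± 327 in *vim1-3* and 4819 ± 643 in WT 23 °C. The 2 subfamilies carried almost the whole signal, since NIPs summed to 99.9 ± 6.94 CPM in WT 29 °C, 100.9 ± 4.26 in 35S:APOLO, 114 ± 3.73 in *vim1-3* and 56.8 ± 16 in WT 23 °C. SIPs were the exception in direction, with 104 ± 5.97 CPM in WT 29 °C, 115 ± 8.23 in 35S:APOLO, 110.3 ± 4.79 in *vim1-3* and 132 ± 22.2 in WT 23 °C, and the libraries of WT 29 °C and WT 23 °C overlapped.

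**Figure D1:**
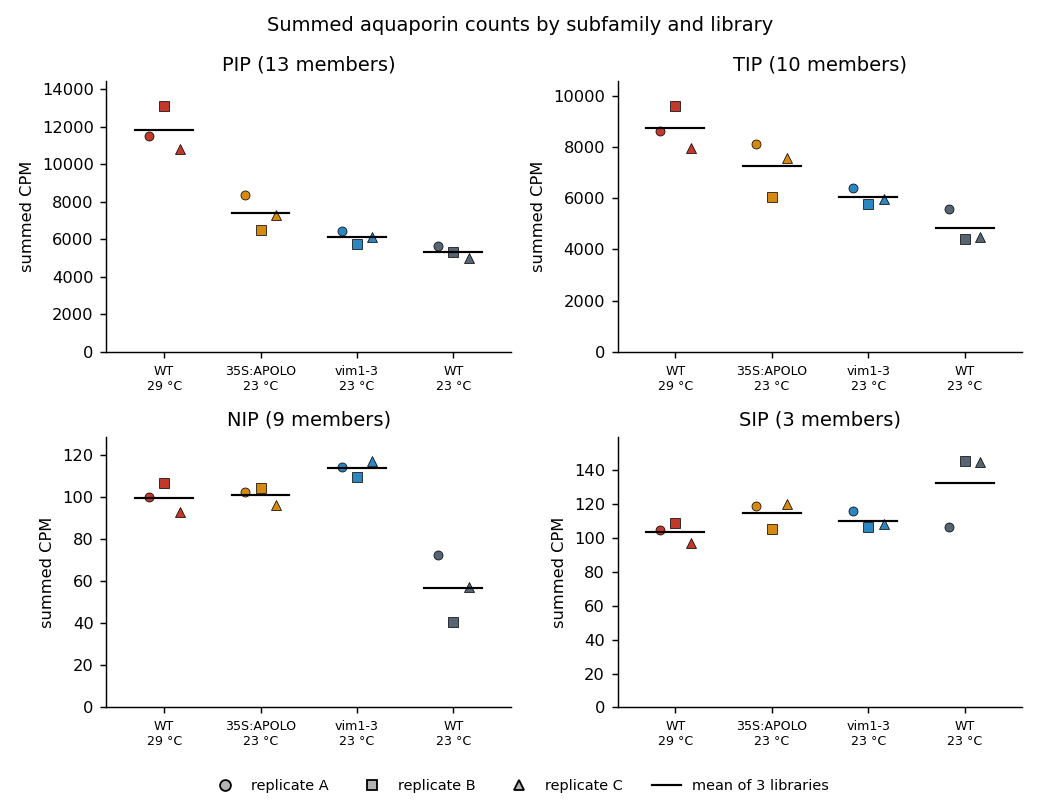
Summed CPM of each aquaporin subfamily (vertical axes, from 0) in the 12 libraries, by group, with symbols for replicates A, B and C and a bar at the mean of 3 libraries. PIP sums of WT 29 °C lie at 10794 to 13118 CPM, above the 4999 to 5661 CPM of WT 23 °C, whereas SIP sums of these groups overlap.

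Levels of different genes were compared per kilobase of exon. Over all libraries *TIP1;2* was the highest member (2345 CPM per kb), followed by *TIP2;1* (AT3G16240, 2036), *PIP1;2* (AT2G45960, 1195), *PIP2;7* (AT4G35100, 926) and *PIP2;1* (787). In WT 29 °C the first of these, both vacuolar, stood at 2700.1 ± 252 and 2735 ± 216 CPM per kb (SD, n = 3), a difference smaller than either SD, whereas in WT 23 °C they stood at 1858 ± 185 and 1629 ± 96.7. The highest NIP was *NIP1;2* (23.4 CPM per kb) and the highest SIP was *SIP1;1* (AT3G04090, 62.2 CPM per kb), both far below the leading PIPs and TIPs on this scale. At the other end, 5 members did not pass the filter. *TIP1;3* (AT4G01470) and *NIP4;1* (AT5G37810) had no read in any library, *TIP5;1* (AT3G47440) had 3 counts in 1 library, *NIP2;1* (AT2G34390) had 30 counts in all and *NIP4;2* (AT5G37820) had 31. *NIP2;1* is known from oxygen-starved roots and the others from pollen. A count of 0 allows a level of up to 0.127 CPM in the deepest library and 0.36 CPM in the shallowest, which covers counting error only.

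Warmth in WT was followed by higher transcript levels of most PIPs and of the abundant TIPs. In WT 29 °C against WT 23 °C, 16 of 30 tested members rose and 1 fell (edgeR quasi-likelihood test, Benjamini-Hochberg adjusted over 20664 genes, threshold 0.01), while 7.88% of all genes tested rose and 12.8% fell. The median log2 fold change, given ± its standard error for single genes, was 1.00 over the 30 members, beside -0.01 over all genes. With upper-quartile scaling the split over all genes was 2270 higher and 2166 lower, against 1628 and 2636 with TMM, and the members' counts were 16 and 1 again. The rises covered 5 of 5 PIP1 and 5 of 8 PIP2 members, 5 of 8 tested TIPs and 1 of 6 tested NIPs, and the fall was 1 of 3 SIPs. Over the 12 fits without 1 library between 16 and 23 members were called. The 23 came without the library labelled WT 23 °C replicate A, where 3179 of all 20945 genes tested were higher and 3956 lower. A fit on the 6 libraries of these groups alone called 10 members, all of them among the 17, and 321 higher and 688 lower of 20145 genes. The 1 call lost in some of these 12 fits was that of *TIP1;2* (without WT 23 °C replicate B or C, or WT 29 °C replicate A or B). The libraries of both groups did not overlap in 22 members that were higher and 2 that were lower, beside 43.9% of all genes in either direction.

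**Figure D2:**
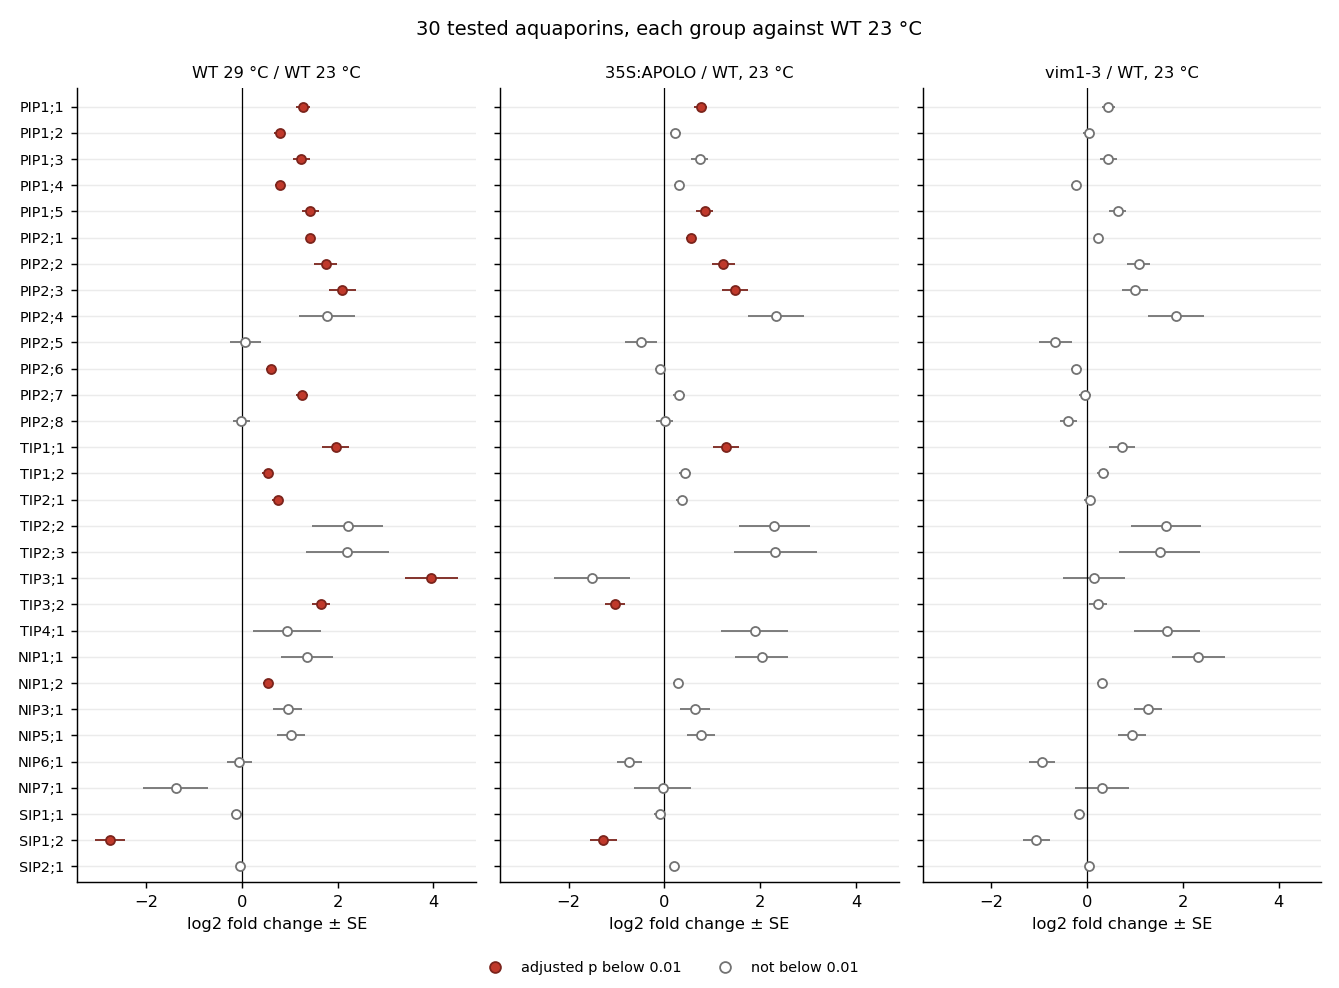
Log2 fold change of each tested aquaporin (rows) in WT 29 °C, 35S:APOLO and *vim1-3*, each against WT 23 °C, with bars of ± 1 SE and filled points where the adjusted p is below 0.01. Filled points number 17 in WT 29 °C, 8 in 35S:APOLO and 0 in *vim1-3*.

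Among the PIP2 channels, *PIP2;3* (AT2G37180) had the largest rise that passed the test. It had 85, 112 and 87.7 CPM in WT 29 °C, 71.8, 57.4 and 55.8 in 35S:APOLO, 46.5, 42.9 and 43.6 in *vim1-3*, against 34, 13.1 and 19 in WT 23 °C. Levels in WT 29 °C were 4.27 times those in WT 23 °C (log2 fold change 2.10 ± 0.28, adjusted p = 0.000353), and all 3 warm libraries lay above all others. *PIP2;2* (AT2G37170), which contributes to water uptake by roots, had 623, 737 and 570.4 CPM in WT 29 °C, 518, 389.9 and 435 in 35S:APOLO, 440.0, 340.3 and 424 in *vim1-3*, against 269, 125 and 177 in WT 23 °C. Its groups WT 29 °C and WT 23 °C did not overlap either, and its change was 3.38-fold (log2 fold change 1.76 ± 0.24, adjusted p = 0.000306). In both genes the library labelled WT 23 °C replicate A was the highest and replicate B the lowest of its group.

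These genes lie next to each other on chromosome 2, on opposite strands, and are nearly identical over part of their coding sequence, so that reads could not always be assigned. Of all 75-base stretches of their exons, the read length used, 8.96% of AT2G37170 and 10.2% of AT2G37180 were shared with the other gene. Trimmed reads longer than 30 bases were kept in the study. Of 30-base stretches, 20% of AT2G37170 and 22% of AT2G37180 were also found in the other gene or, for AT2G37170, in *PIP2;1*. The longest stretch identical in both, 127 coding bases at chr2:15614491-15614617 (minus strand) in AT2G37170 and chr2:15617953-15618079 (plus strand) in AT2G37180 (TAIR10.1), is printed because a read inside it cannot tell the genes apart. How reads with several matches were counted is not given in the sources used here.
AT2G37170 and AT2G37180: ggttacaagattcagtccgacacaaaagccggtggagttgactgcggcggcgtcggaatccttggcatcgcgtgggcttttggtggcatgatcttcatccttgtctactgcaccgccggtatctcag

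*PIP2;1* and *PIP2;7*, the most abundant PIP2 members, set warm WT seedlings apart from all other groups. The first, a water channel of roots and guard cells whose gating depends on phosphorylation, had 2041, 2363 and 1920.2 CPM in WT 29 °C, 1247, 1056 and 1125 in 35S:APOLO, 959, 879 and 923 in *vim1-3*, against 803, 791 and 749 in WT 23 °C. The 3 WT 23 °C libraries were close together, and WT 29 °C stood 2.7-fold above them (log2 fold change 1.43 ± 0.10, adjusted p = 5.36e-06). *PIP2;7* had 2479, 2835 and 2263 CPM in WT 29 °C, 1525, 1164 and 1264 in 35S:APOLO, 1129, 978 and 989 in *vim1-3*, against 1123, 1112 and 955 in WT 23 °C. The warm libraries were the highest here, at 2.37 times WT 23 °C (log2 fold change 1.25 ± 0.13, adjusted p = 3.79e-05). All 35S:APOLO libraries also lay above all *vim1-3* and WT 23 °C libraries. Their change against WT 23 °C did not pass the test (log2 fold change 0.31 ± 0.12, adjusted p = 0.0918). *PIP2;6* (AT2G39010), which is expressed in leaf veins, had 551, 566 and 532 CPM in WT 29 °C, 379, 298 and 334 in 35S:APOLO, 309, 315 and 298 in *vim1-3*, against 314, 405 and 358 in WT 23 °C. Its rise was smaller (log2 fold change 0.61 ± 0.11, adjusted p = 0.00106), and here only the warm libraries stood above the rest. The remaining PIP2 members did not pass the test. *PIP2;5* (AT3G54820) averaged 4.86 ± 0.458 CPM in WT 29 °C, against 4.5 ± 2.96 in WT 23 °C, and *PIP2;8* (AT2G16850) averaged 6.53 ± 0.426 CPM in WT 29 °C, against 6.47 ± 1.7 in WT 23 °C (SD, n = 3). The root member *PIP2;4* (AT5G60660) is described further on.

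All 5 PIP1 members rose in warm WT seedlings. *PIP1;5* (AT4G23400) changed most and had 416, 469 and 395 CPM in WT 29 °C, 309, 259 and 283 in 35S:APOLO, 256, 229 and 252 in *vim1-3*, against 209.5, 112 and 153 in WT 23 °C. Its 3 warm libraries were the highest of all 12, and the change against WT 23 °C was 2.7-fold (log2 fold change 1.43 ± 0.18, adjusted p = 0.000147). *PIP1;2*, the most abundant PIP and a contributor to water flow in roots and shoots, had 2596, 2937 and 2521 CPM in WT 29 °C, 1998, 1565 and 1874 in 35S:APOLO, 1686, 1508 and 1567 in *vim1-3*, against 1444, 1753 and 1454 in WT 23 °C. Only the warm libraries stood apart, 1.73-fold above WT 23 °C (log2 fold change 0.79 ± 0.12, adjusted p = 0.00033), while 35S:APOLO, *vim1-3* and WT 23 °C overlapped. *PIP1;1* (AT3G61430) had 1176, 1328 and 1080.3 CPM in WT 29 °C, 967, 718 and 822 in 35S:APOLO, 705, 609 and 707 in *vim1-3*, against 589.7, 424 and 473 in WT 23 °C. Its change was 2.41-fold (log2 fold change 1.27 ± 0.14, adjusted p = 7.5e-05). *PIP1;3* (AT1G01620) had 1176, 1369 and 1091 CPM in WT 29 °C, 1022, 715 and 814 in 35S:APOLO, 710.4, 660.3 and 717 in *vim1-3*, against 646, 398 and 492 in WT 23 °C. It changed 2.37-fold (log2 fold change 1.24 ± 0.17, adjusted p = 0.000253). *PIP1;4* (AT4G00430), reported to pass carbon dioxide as well as water, had 309.7, 336 and 285 CPM in WT 29 °C, 238, 199.8 and 221 in 35S:APOLO, 148, 159.7 and 147 in *vim1-3*, against 190.2, 193 and 153 in WT 23 °C. Averaged over all libraries, *PIP1;4* had the lowest level of the 5 (215 CPM). It changed 1.73-fold (log2 fold change 0.79 ± 0.11, adjusted p = 0.000216). In all 5 genes the warm libraries lay above every WT 23 °C library.

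**Figure D3:**
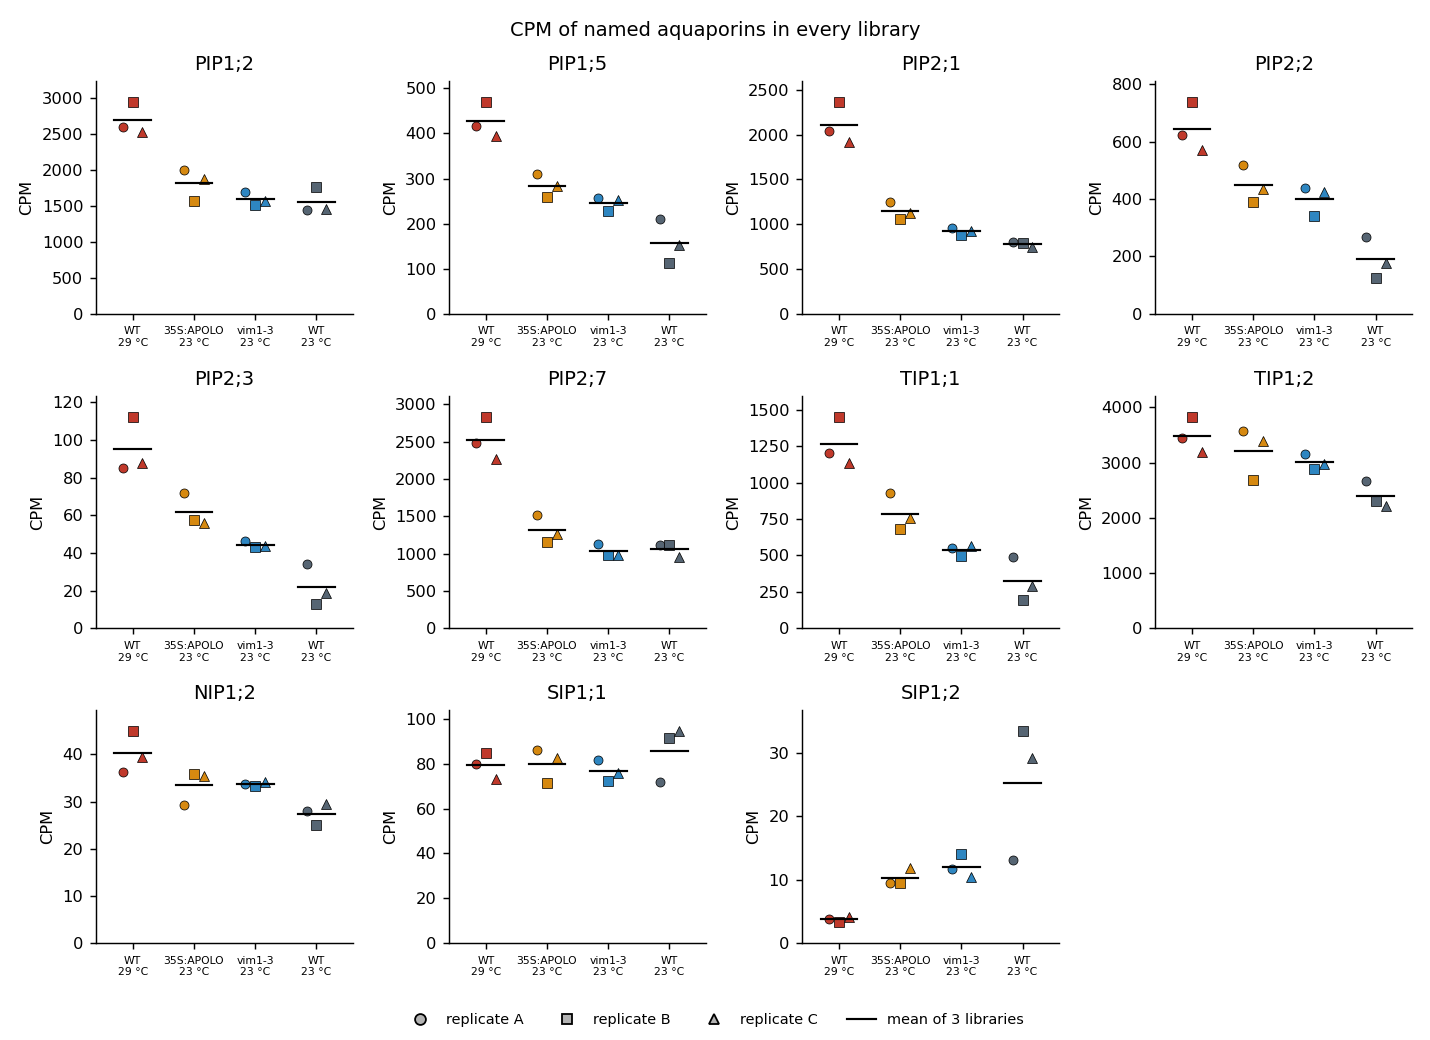
CPM of the 11 named aquaporins (vertical axes, from 0) in the 12 libraries by group, with symbols for replicates and a bar at the mean of 3 libraries. *PIP2;1* and *PIP2;7* reach at least 1920 CPM in WT 29 °C and at most 1525 CPM in any other library, and *SIP1;2* runs the other way, at 3.32 to 4.08 CPM in WT 29 °C and 13 to 33.4 CPM in WT 23 °C.

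Among the vacuolar channels with at least 10 CPM, *TIP1;1* (AT2G36830) had the largest rise that passed the test. This aquaporin of elongating cells had 1205, 1451 and 1135 CPM in WT 29 °C, 926, 679 and 755 in 35S:APOLO, 555, 497 and 562 in *vim1-3*, against 490.3, 192 and 289.9 in WT 23 °C. Each step of this order was free of overlap between libraries, and WT 29 °C was 3.9-fold above WT 23 °C (log2 fold change 1.96 ± 0.28, adjusted p = 0.000442). *TIP1;2*, the most abundant member of the family, had 3438, 3828 and 3183 CPM in WT 29 °C, 3569, 2683 and 3399 in 35S:APOLO, 3155, 2891 and 2969.7 in *vim1-3*, against 2666, 2310.2 and 2214 in WT 23 °C. It moved less, 1.45-fold (log2 fold change 0.54 ± 0.12, adjusted p = 0.00467), and its WT 29 °C and 35S:APOLO libraries overlapped. *TIP2;1*, a vacuolar channel that also passes ammonia, had 3261, 3505 and 2991 CPM in WT 29 °C, 2741, 2051 and 2651 in 35S:APOLO, 2129.5, 1977 and 1938 in *vim1-3*, against 2066, 1896 and 1847 in WT 23 °C. The warm libraries were the highest of all 12, and the change against WT 23 °C was 1.68-fold (log2 fold change 0.75 ± 0.11, adjusted p = 0.000442). Its exons overlap 166 bases of genes on the opposite strand, and the strand setting of the counting is not given in the sources used here.

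NIPs and SIPs gave 1 rise and 1 fall. *NIP1;2*, which transports aluminium malate in roots, had 36.3, 44.9 and 39.5 CPM in WT 29 °C, 29.2, 35.8 and 35.4 in 35S:APOLO, 33.8, 33.4 and 34.2 in *vim1-3*, against 27.9, 25 and 29.4 in WT 23 °C. All warm libraries were above all WT 23 °C libraries, by 1.47-fold (log2 fold change 0.55 ± 0.10, adjusted p = 0.0017). *SIP1;2* had 3.73, 3.32 and 4.08 CPM in WT 29 °C, 9.52, 9.52 and 11.8 in 35S:APOLO, 11.6, 14.1 and 10.4 in *vim1-3*, against 13, 33.4 and 29.2 in WT 23 °C. It was the only member that fell, 6.72-fold lower in WT 29 °C (log2 fold change -2.75 ± 0.31, adjusted p = 9.8e-05), and within WT 23 °C the library labelled replicate A was the lowest. *SIP1;1*, the most abundant SIP, had 80, 84.7 and 73.2 CPM in WT 29 °C, 86.1, 71.4 and 82.4 in 35S:APOLO, 81.8, 72.1 and 75.7 in *vim1-3*, against 71.7, 91.4 and 94.4 in WT 23 °C, and its 4 groups overlapped (log2 fold change -0.11 ± 0.11, adjusted p = 0.474). *SIP2;1* (AT3G56950) ranged over 20.1 to 21.2 CPM in WT 29 °C, 23.2 to 26.2 in 35S:APOLO, 20.4 to 22.5 in *vim1-3* and 20.6 to 22 in WT 23 °C (WT 29 °C against WT 23 °C adjusted p = 0.725). Of the NIPs known to carry boric acid, *NIP6;1* (AT1G80760) had 3.63 to 4.14 CPM in WT 29 °C, against 2.64 to 5.15 in WT 23 °C, and *NIP7;1* (AT3G06100) had 0.0907 to 0.233 CPM in WT 29 °C, against 0.288 to 0.601 in WT 23 °C. Neither passed the test in any comparison. Against WT 23 °C, genes of the jasmonate and wound response moved in part beside *SIP1;2*. The 6 markers summed to 104 to 111 CPM in WT 29 °C, 54.6 to 65.8 in 35S:APOLO, 36.2 to 46.6 in *vim1-3* and 124 to 661 in WT 23 °C, where the library labelled replicate A was the lowest. Of these 6 genes, 3 fell in WT 29 °C, 4 in 35S:APOLO and 4 in *vim1-3*, each against WT 23 °C. In WT 29 °C against *vim1-3*, 2 of the 6 were higher and 0 lower, whereas *SIP1;2* was lower. *AT5G24780* ran the other way, at 3.09 to 5.04 CPM in WT 29 °C, against 1.70 to 2.76 in WT 23 °C. *AT2G39030* was the marker at 0, in 2 WT 29 °C, 2 35S:APOLO and 1 *vim1-3* libraries, and had 13.5, 228 and 155 CPM in WT 23 °C. Their part in the *SIP1;2* result was not tested.

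In 35S:APOLO against WT 23 °C, 6 of 30 tested aquaporins rose and 2 fell, while 2.6% of all genes rose and 7.68% fell. The 3 comparisons with WT 23 °C share those libraries. The members that rose were 2 PIP1 genes (*PIP1;1* and *PIP1;5*), 3 PIP2 genes and *TIP1;1*, and all 6 were among those called higher in WT 29 °C. *PIP2;3* rose 2.77-fold (log2 fold change 1.47 ± 0.28, adjusted p = 0.00473), *TIP1;1* 2.43-fold (adjusted p = 0.00817) and *PIP2;2* 2.35-fold (adjusted p = 0.00439). In each of these, every 35S:APOLO library lay above every WT 23 °C library, in the values given above. Over all genes, 33.5% did not overlap in either direction. The 2 PIP1 genes changed 1.69-fold and 1.79-fold (adjusted p = 0.00334 and 0.00615), and *PIP2;1* changed 1.46-fold (log2 fold change 0.55 ± 0.10, adjusted p = 0.00245). The members that fell were the seed channel *TIP3;2* (AT1G17810) and *SIP1;2*, of which the second was 2.43-fold lower (log2 fold change -1.28 ± 0.28, adjusted p = 0.00877). Median log2 fold changes were 0.39 for the 30 members and -0.03 for all genes.

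These calls depended on single libraries, as did those over all genes. Without the library labelled WT 23 °C replicate A, 18 members were called (15 higher and 3 lower, including all 8 of the full set), beside 2566 higher and 3567 lower of 20945 genes tested. In contrast, none was called without WT 23 °C replicate C or 35S:APOLO replicate C. The count was 1 without 35S:APOLO replicate A, 3 without 35S:APOLO replicate B, and 5 without any single WT 29 °C or *vim1-3* library. All groups share 1 estimate of the spread, and filter, scaling and adjustment were redone in each fit. Over all genes, 226 were higher and 837 lower without WT 23 °C replicate C. Without 35S:APOLO replicate C, A or B these were 186 and 584, 183 and 663, and 121 and 529. Without a WT 29 °C or *vim1-3* library they were 348 to 413 and 1222 to 1369. Without WT 23 °C replicate B the count was again 8, of which 6 were shared with the full set and both falls were lost. In that fit 500 of all genes were higher and 979 lower. The fall of *SIP1;2* was called in 1 of the 12 fits without 1 library, that without the library labelled WT 23 °C replicate A. A fit restricted to the 6 libraries called 0 members and, of 20114 genes, 0 higher and 2 lower. At an unadjusted p below 0.05 the full fit had 19 members higher and 3 lower, beside 36.3% of all genes in either direction.

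In *vim1-3* against WT 23 °C no aquaporin passed the test, while 2.19% of all genes rose and 4.45% fell (edgeR). At an unadjusted p below 0.05, 15 members were higher and 4 lower, beside 34.8% of all genes in either direction. DESeq2 called 7 members on the 12 libraries, beside 1151 higher and 1740 lower of all 20664 genes, and 1 member on the 6 libraries compared, beside 493 higher and 964 lower of 20235. *PIP2;2* came nearest, with a log2 fold change of 1.08 ± 0.24 and an adjusted p of 0.0113, and its *vim1-3* libraries were all above WT 23 °C. *NIP3;1* (AT1G31885, 1.27 ± 0.30, adjusted p = 0.0136) and the arsenite channel *NIP1;1* (AT4G19030, 2.32 ± 0.55, adjusted p = 0.0196) followed among those that were higher. *SIP1;2* came nearest of those that were lower (-1.07 ± 0.28, adjusted p = 0.0238). Without the library labelled WT 23 °C replicate A, 13 members were called, 11 higher and 2 lower, beside 2311 higher and 3305 lower of 20945 genes. Without replicate B 1 was, *NIP1;1*, beside 335 higher and 429 lower of 20853. In the full set the libraries of both groups did not overlap in 16 members that were higher and 1 that was lower in *vim1-3*, beside 36.2% of all genes in either direction. The median log2 fold change of the members was 0.31, beside -0.03 for all genes.

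Comparisons without WT 23 °C did not contain its libraries, although the shared estimate of the spread did. In WT 29 °C against 35S:APOLO, 7 of 30 members were higher and 1 lower, while 4.7% of all genes were higher and 3.47% lower. In WT 29 °C against *vim1-3*, 12 were higher and 1 lower, while 6.75% of all genes were higher and 6.88% lower. *PIP2;7* was 1.92-fold above 35S:APOLO (log2 fold change 0.94 ± 0.12, adjusted p = 0.000412) and 2.45-fold above *vim1-3* (log2 fold change 1.29 ± 0.13, adjusted p = 3.27e-05). *PIP2;1* was 1.84-fold above 35S:APOLO (adjusted p = 0.000138) and 2.29-fold above *vim1-3* (adjusted p = 1.16e-05). The 7 members higher than in 35S:APOLO were also higher than in *vim1-3*, and comprised these PIP2 genes, *PIP2;6*, *PIP1;2*, *PIP1;4* and both TIP3 genes. *SIP1;2* was lower in both comparisons, with log2 fold changes of -1.47 ± 0.31 and -1.68 ± 0.30 (adjusted p = 0.00749 and 0.00239). Its call against 35S:APOLO was kept only without WT 23 °C replicate A or B, and its call against *vim1-3* was lost without any one WT 29 °C library or *vim1-3* replicate B. Both comparisons share the warm libraries. Leaving out 1 library gave 5 to 13 members against 35S:APOLO and 8 to 16 against *vim1-3*, with 13 and 16 without the library labelled WT 23 °C replicate A and 8 without *vim1-3* replicate B. Without that WT 23 °C library 1836 of all genes were higher and 1812 lower against 35S:APOLO, and 2371 higher and 2748 lower against *vim1-3*. Against 35S:APOLO, 5 were left without any one WT 29 °C library, 35S:APOLO replicate B or C, or *vim1-3* replicate A or C. Over all genes those fits gave 446 to 749 higher and 304 to 502 lower.

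**Figure D4:**
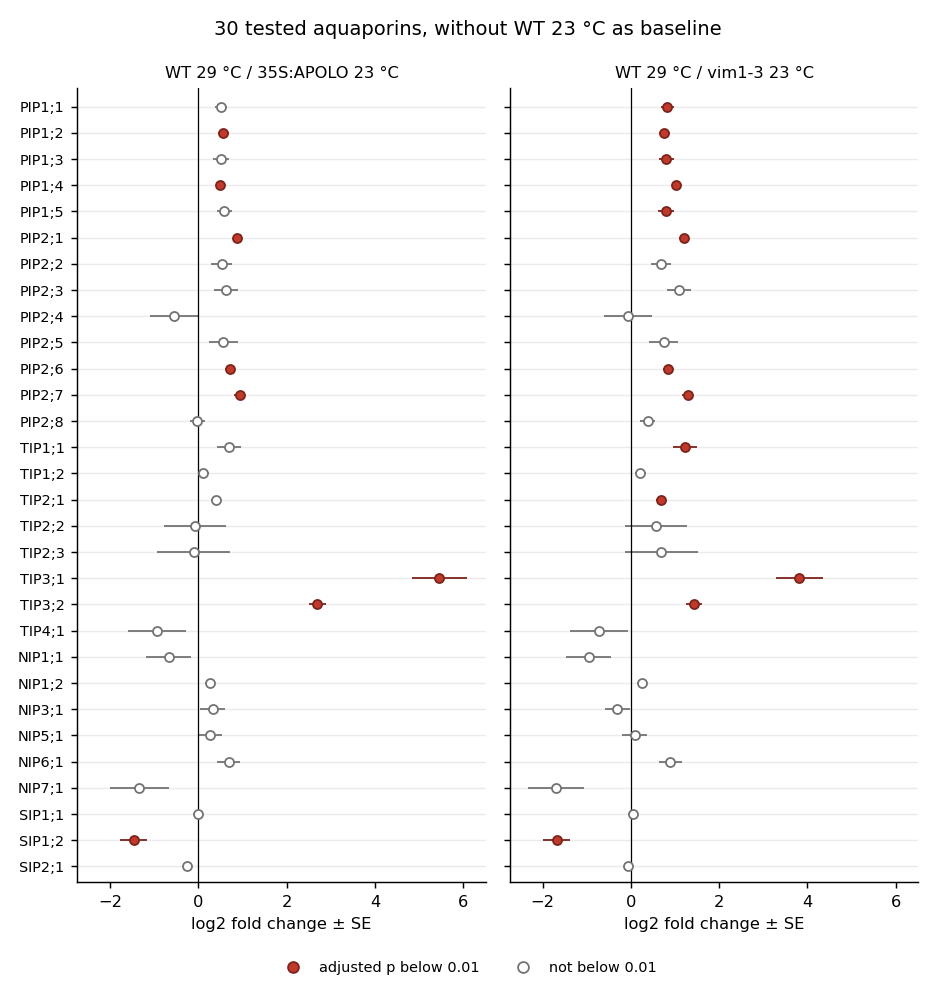
Log2 fold change of each tested aquaporin (rows) in WT 29 °C against 35S:APOLO and against *vim1-3* at 23 °C, with bars of ± 1 SE and filled points where the adjusted p is below 0.01. Filled points number 8 and 13, and in each panel the only filled point below 0 is *SIP1;2*.

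Of the 6 members called higher in both WT 29 °C and 35S:APOLO than in WT 23 °C, 1 was also called between these groups, the *PIP2;1* gene above. For the others the adjusted p between WT 29 °C and 35S:APOLO was 0.026 and 0.039 for the 2 PIP1 genes. It was 0.153 for *PIP2;2*, 0.142 for *PIP2;3* and 0.111 for *TIP1;1*. The warm libraries were higher in all 5 genes without overlap, beside 42.2% of all genes without overlap in either direction. For *TIP1;2* the log2 fold change was near 0 (0.11 ± 0.12, adjusted p = 0.561). In 35S:APOLO against *vim1-3* 0 members were higher and 1 was lower, while 0.581% of all genes were higher and 1.29% lower. At an unadjusted p below 0.05, 7 members were higher and 2 lower in that comparison, beside 20.2% of all genes in either direction. DESeq2 called 2 members on 12 libraries, beside 436 higher and 634 lower genes, and 9 on 6 libraries, beside 960 higher and 1233 lower. Without 35S:APOLO replicate B or C, or *vim1-3* replicate A or C, edgeR called 0, beside 21 to 35 genes higher and 87 to 110 lower. Without any one WT 23 °C library it called 2, beside 119 to 607 genes higher and 276 to 1022 lower. All 13 PIPs had a log2 fold change above 0 there, between 0.13 and 0.53, and *PIP1;4* came nearest to the threshold among them (adjusted p = 0.0139).

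Some members varied so much among the WT 23 °C libraries that large differences did not pass the test. They were singled out after their values were seen. *TIP2;2* (AT4G17340), a vacuolar channel of roots, had 504, 572 and 458 CPM in WT 29 °C, 619.8, 454 and 542 in 35S:APOLO, 397, 278 and 357 in *vim1-3*, against 229, 12.4 and 88.8 in WT 23 °C. Its change in WT 29 °C was 4.64-fold with an adjusted p of 0.0432, and every WT 23 °C library was below every other. *TIP2;3* (AT5G47450) had 176, 206 and 169 CPM in WT 29 °C, 236, 159 and 200.0 in 35S:APOLO, 135, 91.3 and 115 in *vim1-3*, against 90.3, 1.87 and 25.9 in WT 23 °C. Its WT 23 °C libraries were all below the others as well, and its change in WT 29 °C was 4.6-fold (adjusted p = 0.0773). *PIP2;4*, a root PIP, had 47.6, 54.4 and 38.1 CPM in WT 29 °C, 79.9, 65.9 and 58.6 in 35S:APOLO, 51.8, 44.3 and 49.8 in *vim1-3*, against 26.8, 2.52 and 10.2 in WT 23 °C. In all 3 genes WT 23 °C replicate B was the lowest library and the library labelled replicate A the highest of the group, and 35S:APOLO held the highest library of all 12.

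*NIP1;1* had 26.5, 27.7 and 17.9 CPM in WT 29 °C, 43.3, 40.8 and 30.5 in 35S:APOLO, 46.6, 44.4 and 48.8 in *vim1-3*, against 17.3, 1.81 and 8.29 in WT 23 °C. Its order differed, with *vim1-3* highest. *NIP5;1* (AT4G10380), the boric acid channel of root uptake, had 28.7, 27.2 and 27.5 CPM in WT 29 °C, 23.3, 22.5 and 23.8 in 35S:APOLO, 27.4, 24.6 and 26.5 in *vim1-3*, against 21.5, 6.97 and 11.8 in WT 23 °C. *TIP4;1* (AT2G25810) had 9.8, 13.4 and 8.8 CPM in WT 29 °C, 26.4, 19.5 and 15.6 in 35S:APOLO, 17.8, 16 and 18.8 in *vim1-3*, against 11.6, 0.351 and 3.96 in WT 23 °C. All 3 were lowest in WT 23 °C replicate B. Across WT 23 °C the highest library of these 6 genes was between 3.09 and 48.2 times the lowest. Without the library labelled WT 23 °C replicate A, 6 further members were called higher in WT 29 °C against WT 23 °C, and these were 5 of the 6 just described, all but *TIP4;1*, and *NIP3;1* (2.88 to 3.91 CPM in WT 29 °C, against 0.937 to 2.59 in all 3 WT 23 °C libraries).

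Root markers moved beside these members. The 10 root markers summed to 2836 to 3233 CPM in WT 29 °C, 3888 to 4734 in 35S:APOLO, 3010 to 3361 in *vim1-3* and 2114 to 3071 in WT 23 °C, and most of that was *AT3G09260*. The other 9 summed to 169 to 214 CPM in WT 29 °C, 184 to 218 in 35S:APOLO and 154 to 181 in *vim1-3*, against 111 CPM in the library labelled replicate A of WT 23 °C, 25.5 in its replicate B and 72.2 in its replicate C. In WT 23 °C replicate B the root hair genes *AT5G49270* and *AT1G12560* were each at 0.117 CPM. Of the 10 root markers, 9 were tested, and 0 of them passed in WT 29 °C against WT 23 °C, 2 rose in 35S:APOLO and 1 in *vim1-3*. The part of root tissue in these results was not tested. Within WT 23 °C the highest library was at most 1.18 times the lowest for the abundant *PIP2;1*, *PIP2;7* and *TIP2;1*. It was 1.39 to 2.60 times the lowest for the other members called higher in both WT 29 °C and 35S:APOLO. In each of those others replicate B was lowest and the library labelled replicate A highest, as for the summed 9 root markers. Members called higher in WT 29 °C alone held this order and others. The part of root tissue in these rises was not tested either.

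**Figure D5:**
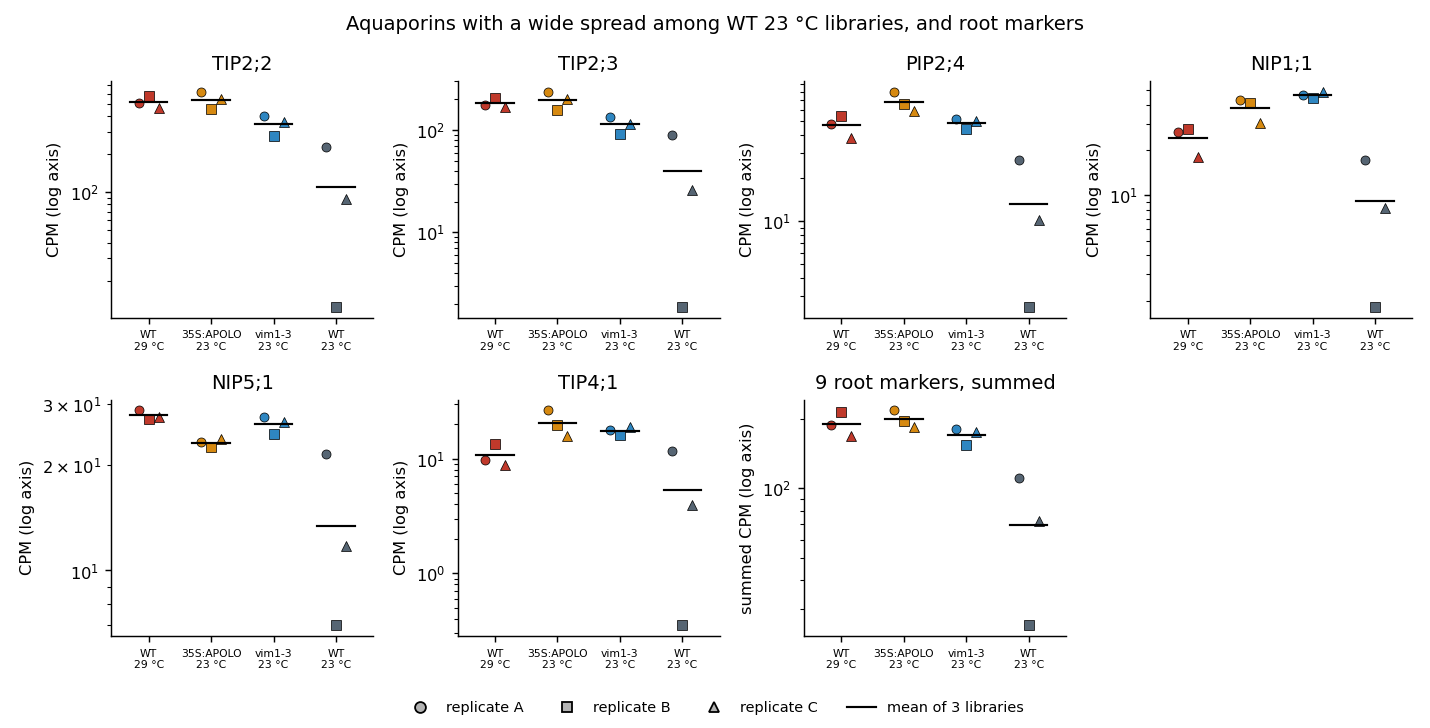
CPM of 6 aquaporins and summed CPM of 9 root markers (log axes) in the 12 libraries by group, with symbols for replicates and a bar at the mean of 3 libraries. In WT 23 °C, replicate B is the lowest library in every panel, at 12.4 CPM for *TIP2;2* and 25.5 summed CPM for the markers.

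The seed TIPs behaved differently from the rest. *TIP3;1* (AT1G73190) and *TIP3;2*, channels of the storage vacuole of seeds, averaged under 10 CPM in WT 23 °C and were singled out after their values were seen. *TIP3;2* had 17.4, 23.1 and 18.1 CPM in WT 29 °C, 3.81, 3.05 and 2.27 in 35S:APOLO, 7.54, 5.96 and 7.98 in *vim1-3*, against 5.42, 6.32 and 6.97 in WT 23 °C. It was highest in all warm libraries and lowest in all 35S:APOLO libraries. Its log2 fold change was 1.66 ± 0.19 in WT 29 °C against WT 23 °C and -1.03 ± 0.20 in 35S:APOLO against WT 23 °C (adjusted p = 7.35e-05 and 0.00415), and it was the single member called between 35S:APOLO and *vim1-3* (log2 fold change -1.26 ± 0.20, adjusted p = 0.00342). *TIP3;1* had 10.2, 13.5 and 9.53 CPM in WT 29 °C, 0.141, 0.104 and 0.465 in 35S:APOLO, 0.98, 0.636 and 0.676 in *vim1-3*, against 1.34, 0.0585 and 0.601 in WT 23 °C. These rest on 629 counts over the 3 WT 29 °C libraries, 13 in 35S:APOLO, 47 in *vim1-3* and 34 in WT 23 °C. Scaled to library size, the summed counts in WT 29 °C were 14.9 times those in WT 23 °C, with a 95% interval of 10.6 to 21.8 that covers counting error only. Against 35S:APOLO the ratio was 44.7 (25.9 to 84.3).

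Markers of seed maturation moved in part with these TIPs. The 11 seed markers summed to 62.2 to 93.4 CPM in WT 29 °C, 5.59 to 35.6 in 35S:APOLO, 14 to 15.5 in *vim1-3* and 1.64 to 22.3 in WT 23 °C. Of 8 tested markers 2 rose in WT 29 °C against WT 23 °C, and the storage protein gene *AT1G03880* had no read in any library of either group. In 35S:APOLO against WT 23 °C, 0 of the 8 passed. Their median log2 fold change there was 1.13, opposite in sign to both *TIP3* genes. In single libraries up to 3 of the 11 were at 0 in WT 29 °C, 2 in 35S:APOLO, 2 in *vim1-3* and 5 in WT 23 °C. The part of residual seed transcripts in the *TIP3* results was not tested. Exons of these genes overlap others on the opposite strand, over 290 bases in *TIP3;1* and 553 in *TIP3;2*.

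The 250 bases before the annotated start of each member were searched for 2 hexamers that basic helix-loop-helix factors such as the PIFs, regulators of growth in warmth, are known to bind. The G-box CACGTG was found in 0 of 35 windows, beside 6.49% of the 27443 windows of nuclear protein-coding genes. CATGTG, searched on both strands and therefore also as CACATG, was found in 11 of 35 windows (31.4%), beside 11.1% of all. It stood before 5 of the 16 members that rose in WT 29 °C and before 6 of the other 19. A match is a description of letters only. Windows are printed for *PIP2;1* (chr3:19805731-19805980, minus strand) and *PIP2;7* (chr4:16708111-16708360, plus strand), the clearest warm members, for *PIP1;2* (chr2:18909831-18910080, plus strand) and *TIP3;1* (chr1:27521694-27521943, plus strand), which rose and hold a match, and for *SIP1;2* (chr5:6058369-6058618, minus strand), which fell (TAIR10.1, capitals mark CATGTG or CACATG).
AT3G53420: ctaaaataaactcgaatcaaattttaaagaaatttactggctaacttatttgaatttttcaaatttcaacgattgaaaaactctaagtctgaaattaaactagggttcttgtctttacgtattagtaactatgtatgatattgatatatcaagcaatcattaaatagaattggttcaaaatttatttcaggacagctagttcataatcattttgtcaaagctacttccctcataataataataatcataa
AT4G35100: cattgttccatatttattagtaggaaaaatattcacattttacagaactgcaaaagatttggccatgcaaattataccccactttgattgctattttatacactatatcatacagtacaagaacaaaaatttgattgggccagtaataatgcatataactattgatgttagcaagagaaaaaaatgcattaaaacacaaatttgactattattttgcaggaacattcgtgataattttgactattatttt
AT2G45960: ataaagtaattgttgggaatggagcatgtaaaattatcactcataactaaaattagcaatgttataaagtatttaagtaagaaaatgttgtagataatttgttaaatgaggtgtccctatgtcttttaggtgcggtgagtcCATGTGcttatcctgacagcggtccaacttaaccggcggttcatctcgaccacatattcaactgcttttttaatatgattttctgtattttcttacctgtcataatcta
AT1G73190: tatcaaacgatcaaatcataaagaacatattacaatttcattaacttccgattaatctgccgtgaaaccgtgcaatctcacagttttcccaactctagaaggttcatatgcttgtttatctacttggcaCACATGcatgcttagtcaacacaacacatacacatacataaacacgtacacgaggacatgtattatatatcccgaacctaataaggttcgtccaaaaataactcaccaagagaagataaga
AT5G18290: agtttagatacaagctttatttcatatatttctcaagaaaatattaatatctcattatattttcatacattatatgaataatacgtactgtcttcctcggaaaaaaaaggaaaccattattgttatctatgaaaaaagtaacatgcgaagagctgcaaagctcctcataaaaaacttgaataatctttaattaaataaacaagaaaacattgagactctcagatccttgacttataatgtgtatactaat

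Genes that work with aquaporins were read from 3 further lists, whose counts stand beside the shares over all genes of 7.88% higher and 12.8% lower in WT 29 °C, 2.6% higher and 7.68% lower in 35S:APOLO, and 2.19% higher and 4.45% lower in *vim1-3*. Of 9 tested proton pumps of the plasma membrane, which energize solute uptake during growth, 3 rose in WT 29 °C, 3 in 35S:APOLO and 0 in *vim1-3*, each against WT 23 °C. *AHA2* (*AT4G30190*), the main pump of roots, averaged 603 CPM in WT 29 °C and 548 in 35S:APOLO, against 309 in WT 23 °C (log2 fold changes 0.97 ± 0.18 and 0.83 ± 0.18). Of 5 pumps of the tonoplast and Golgi, 1 fell in WT 29 °C and 0 changed in the other groups. Of 10 reported partners in aquaporin traffic, turnover and phosphorylation, 1 rose and 2 fell in WT 29 °C, 2 fell in 35S:APOLO and 0 changed in *vim1-3*. The riser was *AT2G47770* (*TSPO*), which binds *PIP2;7* for degradation and averaged 55.2 CPM in WT 29 °C, against 5.68 CPM in WT 23 °C (log2 fold change 3.21 ± 0.64, adjusted p = 0.00407). The syntaxin gene *AT3G11820* (*SYP121*), needed to deliver PIPs to the plasma membrane, averaged 28.7 CPM in WT 29 °C and 33.5 in 35S:APOLO, against 72.3 in WT 23 °C (adjusted p = 0.000139 and 0.00103).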

How the data were processed

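RNA was sequenced from 12 libraries of whole seedlings, 3 per group, described in the study's methods as independent biological replicates. The authors deposited raw read counts per gene: reads of 75 bases were trimmed with Trimmomatic 0.36, freed of ribosomal RNA, aligned to TAIR10 with STAR 2.5.2b and counted over Araport11 exons with featureCounts (Subread 1.6.5). The strand setting is not given in the sources used here. Counts were fitted in R 4.3.3 with edgeR 4.0.16: genes were kept by filterByExpr (20664 of 37336), scaled by TMM and tested by the quasi-likelihood test in 1 fit of all groups with 6 contrasts. p-values were adjusted by Benjamini-Hochberg over all genes at a threshold of 0.01, that of the study. Standard errors are the log2 fold change over the root of the F statistic. CPM are counts per 1000000 of TMM-scaled library size, so deeper libraries give more exact values. Exon lengths, positions and sequences came from the RefSeq annotation of TAIR10.1. Values in every library are given for members named by a rule: in comparisons with WT 23 °C the 4 largest rises and falls called at 10 CPM or more, in the other comparisons the 2 largest each way, and the highest member per length of each subfamily. Outside this rule they are given for *PIP1;1*, *PIP1;3*, *PIP1;4*, *PIP2;6*, *TIP2;1* and the members singled out after their values were seen. The members, lists and this rule were chosen with earlier results of these data known. Also tried were other scaling factors (RLE, upper quartile), DESeq2 1.42.0, fits on the 6 libraries compared, other count filters, a replicate block, a threshold of 0.05 and leaving out each library. Figures were drawn with matplotlib.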

Additional observations from a re-analysis of the deposited data

How the results depend on the processing

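WT 29 °C against WT 23 °C gave 17 members in the full fit and 10 with edgeR on the 6 libraries compared. 35S:APOLO against WT 23 °C gave 8 in the full fit, 13 with DESeq2 on 12 libraries, 13 at a threshold of 0.05 and 0 with edgeR on 6 libraries. Over all genes, the full fit gave 538 higher and 1588 lower, DESeq2 on 12 libraries 1258 and 2148, and the threshold of 0.05 1751 and 2950. *vim1-3* against WT 23 °C gave 0, 7 with DESeq2 on 12 libraries, 1 with DESeq2 on 6 and 9 at 0.05. The threshold of 0.05 gave 1612 higher and 2515 lower over all 20664 genes there, against 452 and 919 in the full fit. WT 29 °C against 35S:APOLO gave 8, 13 with edgeR and 18 with DESeq2 on 6 libraries. Over all genes, the full fit gave 972 higher and 717 lower. On 6 libraries edgeR gave 1680 and 1746, and DESeq2 1660 and 1766. WT 29 °C against *vim1-3* gave 13, and 21 with either tool on 6 libraries. The counts over all genes rose too, from 1394 higher and 1422 lower in the full fit. On 6 libraries they were 2888 and 3158 with edgeR, and 2549 and 3012 with DESeq2. 35S:APOLO against *vim1-3* gave 1, 2 with DESeq2 on 12 libraries, 6 with edgeR and 9 with DESeq2 on 6, and 2 at 0.05. Over all genes, the full fit gave 120 higher and 267 lower, edgeR on 6 libraries 926 and 1220, and the threshold of 0.05 476 and 682. Leaving out 1 library gave 16 to 23, 0 to 18, 0 to 13, 5 to 13, 8 to 16 and 0 to 2 members in these comparisons, in this order, and the count of 23, 18, 13, 13 or 16 came without the library labelled WT 23 °C replicate A (16 also without replicate B), the 8 without *vim1-3* replicate B.

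Correlations of same-letter deviations from group means ran between -0.22 and 0.19, and those of different letters between -0.32 and 0.40. No pairing of libraries by replicate letter was seen. Deviations within a group of 3 libraries depend on each other, so weak pairing could not be told from none. With a replicate block, *vim1-3* against WT 23 °C gave 1 member, WT 29 °C against 35S:APOLO 5 and 35S:APOLO against *vim1-3* 0, and the other counts were within 1.5 times. Genes higher and lower with the block were 236 and 468, 706 and 488, and 66 and 204 in these comparisons, in this order. In the full fit they were 452 and 919, 972 and 717, and 120 and 267. In 35S:APOLO against WT 23 °C the block gave 6 members, all higher, so that neither fall, of *TIP3;2* or of *SIP1;2*, was called. Genes higher and lower there were 395 and 1229, against 538 and 1588 in the full fit. In WT 29 °C against 35S:APOLO the calls of *PIP1;2*, *PIP1;4* and *SIP1;2* were lost. Of 26 log2 fold changes of named members, 225 of 312 values without 1 library and 217 of 234 values under the other alternatives kept their call, and 0 reversed. The 234 include 26 values at the threshold of 0.05 in the same fit, where no call could be lost. Counts over all genes moved under the same settings, and in 35S:APOLO against WT 23 °C ran between 2 genes with edgeR on 6 libraries and 2566 higher and 3567 lower without WT 23 °C replicate A. The cause of these shifts was not tested, beyond the smaller number of libraries in the reduced fits. Depth limits members under 1 CPM, where 3 counts correspond to 0.127 to 0.36 CPM.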
